A study of Homo sapiens with 12 samples.

Results

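The regions bound by SREBP2 were compared with those bound by RORγ in HCC70 cells that had been treated with XY018. HCC70 is an established human triple-negative breast cancer line, and XY018 is a small-molecule antagonist of RORγ. All chromatin immunoprecipitation (ChIP) libraries came from this line, grown in serum-containing medium and given either vehicle or XY018 (5 µM) for 24 h, and the labels name no engineered allele. The RORγ antibody was a rabbit serum raised against a fragment of the human protein. The members are all regions on chromosomes 1 to 22 and X that the peak caller MACS2 listed for each factor in the treated cells, 69700 for SREBP2 and 129954 for RORγ, together 199654 of the 684829 regions in the 6 lists of the series. The other 4 lists, SREBP2 and RORγ with vehicle and the histone mark H3K27ac with vehicle and with XY018, were used as further readouts. A region that overlapped a region of the other factor by at least 1 bp was classed as shared, and the rest as SREBP2 only or RORγ only. Each group was 1 library, so no difference here has a replicate check and no p-value is given. Intervals are 95% intervals that cover counting error only.

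SREBP2 is a membrane-bound transcription factor that is released by proteolysis when sterols run low, enters the nucleus and binds sterol regulatory elements (SREs) in the promoters of cholesterol synthesis and uptake genes. RORγ is a nuclear receptor that binds as a monomer to ROR response elements (ROREs), an A/T-rich stretch before a nuclear receptor half-site. Its T-cell isoform drives Th17 differentiation, and in other tissues the receptor sits in the loop of the circadian clock. H3K27ac, the acetylation of lysine on the tail of histone H3, marks active promoters and enhancers.

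The sites below are shown because they are the searched elements found near the starts of sterol and clock genes, with coordinates in GRCh37 and the element in capitals, and each is read on the strand on which it matches. The first group holds the SRE letters TCACNCCAC and the second the RORE core.
SREBF2, chr22:42228966-42228994, plus strand: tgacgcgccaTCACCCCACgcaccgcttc
HMGCS1, chr5:43313755-43313783, minus strand: cgtcagtctcTCACACCACttcctcggcc
NPC1L1, chr7:44581401-44581429, minus strand: tgtcactgcgTCACTCCACcctgcctgcc
BMAL1, chr11:13299355-13299382, plus strand: gaaggcagaAAGTAGGTCAgggacggag
NR1D2, chr3:23987470-23987497, minus strand: ccccggggaATGTGGGTCAgggagccga
CLOCK, chr4:56412298-56412325, plus strand: acaggaataAAGTGGGTCAcaaggccta

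The bulk of the regions looked otherwise. The next pair of sequences, each 121 bases centred on an SREBP2 summit outside promoters, come from regions of high fold enrichment and are shown as 1 example each of a strong shared and a strong SREBP2 only site. Both are on the plus strand, with CG dinucleotides in capitals.
Shared, intergenic, chr21:9437331-9437451: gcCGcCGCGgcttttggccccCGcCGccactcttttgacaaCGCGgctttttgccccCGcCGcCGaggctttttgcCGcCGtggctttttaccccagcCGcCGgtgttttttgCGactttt
SREBP2 only, intergenic, chr12:94495193-94495313: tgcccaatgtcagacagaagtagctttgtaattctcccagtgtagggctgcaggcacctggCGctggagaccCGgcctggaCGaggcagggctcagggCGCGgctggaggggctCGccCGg
The shared sequence held 15 CG dinucleotides at 63.6% GC and the SREBP2 only sequence 7 at 66.1% GC, and single strong sites need not follow the class medians given below: the SREBP2 only region near TMEM238 held 15 at 79.3% GC.

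Of the SREBP2 regions, 44638 (64.0%, 63.7 to 64.4) were shared, and of the more numerous RORγ regions 44061 (33.9%, 33.6 to 34.2) were shared. The SREBP2 only class held 25062 regions and the RORγ only class 85893. The RORγ list covered 1.74% of the compared genome and the SREBP2 list 1.13%. Sharing was mostly between single regions, since 42157 SREBP2 regions met exactly 1 RORγ region and 2481 met 2 or more. A pair had a median of 377 bp in common. At the edge of the rule, 17 pairs had 1 bp in common and 99 SREBP2 regions without overlap lay 0 to 9 bp from a RORγ region.

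Stricter limits on significance raised both shares. With both lists held to q of at most 0.01, 74.2% of SREBP2 and 51.3% of RORγ regions were shared, and at q of at most 1e-05 the shares were 87.2% and 81.0%. The lowest background of the peak calls corresponded to 5.92 tags per kb for SREBP2 and 3.65 for RORγ. This background depends on the control, which is not known, so it need not be the depth of either library. The part of depth in the unequal list lengths was not tested.

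The classes differed in strength, width and base composition. Median fold enrichment over the local background was 6.77 at shared SREBP2 regions and 3.16 at SREBP2 only regions. On the RORγ side it was 8.18 at shared and 3.504 at RORγ only regions. In fragments piled up at the summit, the medians were 17 and 7 for SREBP2 and 16 and 6 for RORγ. Shared SREBP2 regions were 458 bp wide (median) and SREBP2 only regions 222 bp. Regions with q above 0.05 made up 3.61% of the shared SREBP2 regions, 25.8% of SREBP2 only and 29.7% of RORγ only.

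Sharing rose steeply with fold enrichment. In deciles of fold, the shared share of SREBP2 regions went from 21.6% in the lowest decile to 80.3% in decile 6 and 99.8% in decile 9. In the highest decile, 6969 of 6970 SREBP2 regions were shared. RORγ regions stayed under 25% through decile 7 (22.98%), then reached 58.4% in decile 8, 97.1% in decile 9 and 99.95% in decile 10. Over the 44638 pairs the log2 folds of the factors had a Pearson r of 0.739 and a Spearman rho of 0.738, a description only, since the pairs share base composition and genomic position.

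**Figure D1:**
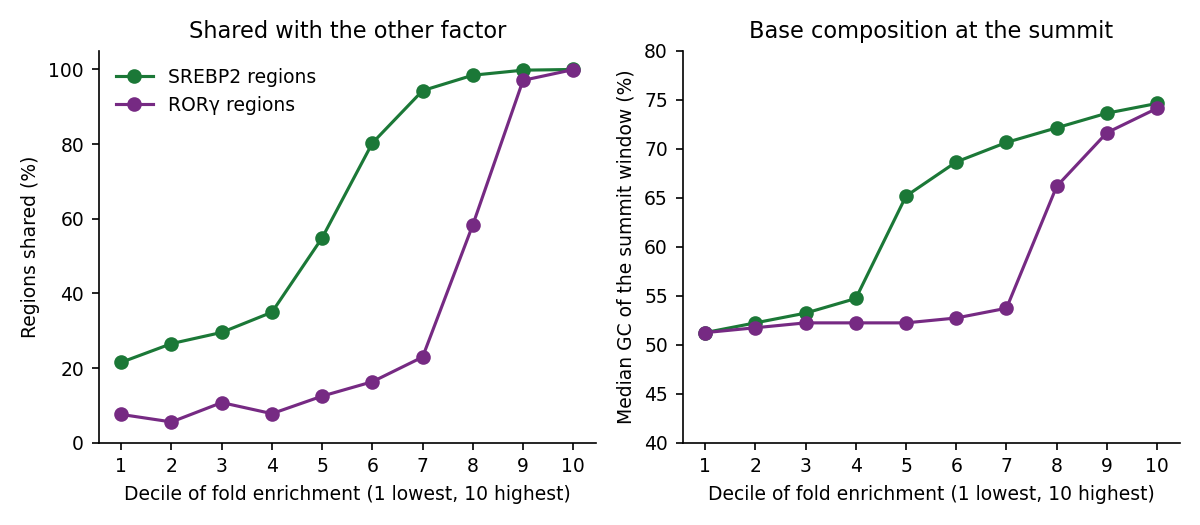
Left, percent of regions shared with the other factor by decile of fold enrichment, for SREBP2 (69700 regions) and RORγ (129954 regions) with XY018. Right, median GC percent of the 201 bp at the summit for the same deciles. Both measures rise slowly over the lower deciles, with dips in the RORγ share, and steeply from decile 5 for SREBP2 and from decile 8 for RORγ.

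Base composition moved with the same order. The median GC content of the 201 bp at the summit was 70.6% at shared regions, 51.7% at SREBP2 only and 52.2% at RORγ only regions, against 53.5%, 45.3% and 43.8% in windows 1 kb away. Shared summits held a median of 15 CG dinucleotides, and the other 2 classes 4 each. Of SREBP2 regions with at least 70% GC, 94.98% (94.7 to 95.2) were shared, and of those under 40% GC 8.26% (7.28 to 9.34). The same RORγ shares were 95.4% (95.1 to 95.6) and 5.54% (4.82 to 6.33). Across all regions the log2 fold followed GC content with a Pearson r of 0.677 for SREBP2 and 0.701 for RORγ. No input signal was analysed here, so the part of base composition in these folds was not tested.

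Within shared regions the summits lay close together, although the overlap rule and the choice of the nearest summit themselves favour short distances. No distance expected from overlap alone was computed. The median distance between an SREBP2 summit and the nearest RORγ summit of an overlapping region was 52 bp, with quartiles of 20 and 127 bp. In all, 49.4% of pairs were within 50 bp, 69.5% within 100 bp, and 1.58% were more than 1000 bp apart. The distance shrank with SREBP2 strength, with medians of 81.5, 51, 44 and 39 bp from the lowest to the highest of 4 equal groups by fold. Promoter pairs had a median of 52 bp and pairs elsewhere 51 bp. Pairs in an H3K27ac region had a median of 48 bp and those outside 56 bp.

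**Figure D2:**
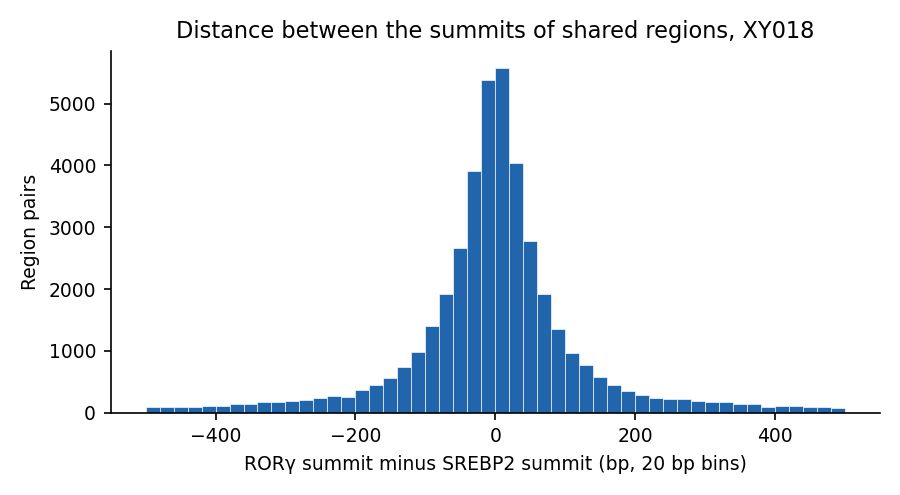
Number of shared region pairs by the signed distance from the SREBP2 summit to the RORγ summit in 20 bp bins, drawn from −500 to 500 bp. The distribution peaks at 0 and is close to symmetric.

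Shared regions were concentrated at transcript starts. A summit counted as promoter if it fell within 1000 bp before or 100 bp after an annotated start of any transcript. By this call 32.9% (32.5 to 33.4) of shared regions were at promoters, 11.3% (10.9 to 11.7) of SREBP2 only and 5.77% (5.62 to 5.93) of RORγ only, where promoters make up 4.56% of the genome. The shared share was thus 21.6 points (21.1 to 22.2) above SREBP2 only and 27.1 points (26.7 to 27.6) above RORγ only. With both lists held to q of at most 1e-05 and the classes drawn anew, the first of these differences turned to -5.66 points (-7.28 to -4.05). The SREBP2 only class then held 4131 regions, although only 4.31% of the 25062 SREBP2 only regions of the deposited lists met that limit. Most of the 4131 thus overlapped a RORγ region that missed the limit, so this value is not for the SREBP2 only class used elsewhere. Within that class, promoter shares were also above those of shared regions in fold deciles 6 to 8, as given below. Coding exons held 8.54% of shared summits, 1.88% of SREBP2 only and 0.934% of RORγ only, with 0.747% of the genome. Introns and intergenic sequence held 28.4% and 16.0% of shared summits, but 49.4% and 36.4% of RORγ only summits, whose spread was close to that of the genome (52.0% and 35.8%). The median distance to the nearest start was 1280 bp for shared, 7361.5 bp for SREBP2 only and 10134 bp for RORγ only regions.

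**Figure D3:**
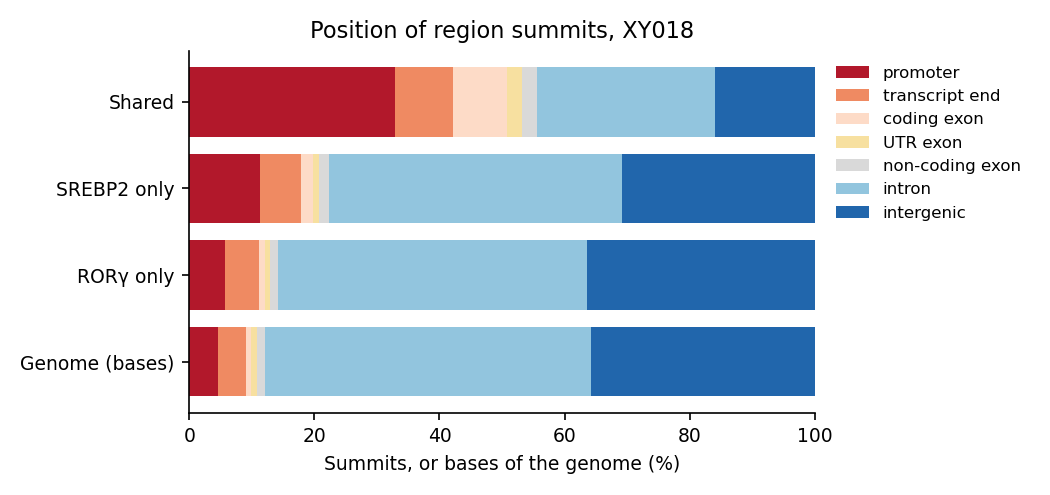
Position of region summits with XY018 by class, in percent of summits, with the share of genome bases below. Promoters and exons take a larger part of the shared class, and the RORγ only class has nearly the makeup of the genome.

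H3K27ac in the treated cells, a readout that the classes did not use, followed the same order in the deposited lists. An H3K27ac region overlapped 49.1% (48.7 to 49.6) of shared, 14.4% (14.0 to 14.8) of SREBP2 only and 4.76% (4.62 to 4.90) of RORγ only regions. With the classes drawn anew under a limit of 1e-05 on q, the difference between shared and SREBP2 only regions was 3.67 points (2.07 to 5.28) instead of 34.7. That from RORγ only regions was 45.3 points. Most SREBP2 only regions of that count were shared in the deposited lists. At promoters the shares were 70.2%, 51.4% and 14.1%, and away from promoters 38.8%, 9.68% and 4.19%. SREBP2 only promoter regions were thus nearer to the shared ones than to the RORγ only ones.

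Among stronger regions of like fold the order of SREBP2 only and shared regions was the other way round. In fold deciles 1 to 5, SREBP2 only regions had the lower promoter and H3K27ac shares, whereas in deciles 6 to 8 they had the higher ones. These deciles were singled out after their values were seen. In decile 7, 54.0% (49.0 to 59.0) of the 396 SREBP2 only regions were at promoters against 36.0% (34.9 to 37.2) of the 6574 shared regions, and 68.7% (63.9 to 73.2) against 52.0% (50.8 to 53.2) overlapped H3K27ac. Decile 8 gave 62.0% (52.2 to 71.2) of 108 against 40.4% for promoters and 80.6% (71.8 to 87.5) against 62.7% for H3K27ac. Median GC did not separate the classes there (72.1% in each).

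RORγ only regions showed no such turn. At decile 9 of RORγ fold, 14.5% (11.1 to 18.4) of the 380 RORγ only regions were at promoters against 36.2% of the 12615 shared regions. For H3K27ac the shares were 10.8% (7.85 to 14.4) and 59.8%. Their median GC was 68.7%, against 71.6% at the shared regions.

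Most shared regions were also listed in vehicle-treated cells. A vehicle SREBP2 region overlapped 93.4% of them, a vehicle RORγ region 89.2%, and both 86.5%. The regions bound by 1 factor were less often found again, since 28.8% of SREBP2 only regions overlapped the vehicle SREBP2 list and 26.5% of RORγ only regions the vehicle RORγ list. In neither vehicle list were 59.7% of SREBP2 only and 63.9% of RORγ only regions. Of the SREBP2 only regions, 23.1% overlapped a RORγ region with vehicle.

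Short sequence elements were counted in 201 bp windows at the summit, on both strands, and in windows of the same length centred 1000 bp away on either side. The GC box GGGCGG, which SP and KLF family factors bind, was in 50.8% (50.4 to 51.3) of shared summit windows against 14.0% at 1 kb. SREBP2 only windows had it in 14.2% and RORγ only windows in 10.6%, and windows at 78394 protein-coding gene starts in 43.5%. The SRE was less frequent at shared summits than 1 kb away (1.03% against 1.58%), and more frequent at SREBP2 only (3.06% against 1.83%) and RORγ only summits (3.29% against 1.63%). Gene starts held it in 0.80%. The E-box CACGTG, which SREBP proteins also bind, was in 5.62% of shared windows against 3.96% at 1 kb, with 5.16% at gene starts.

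The elements of RORγ went apart by their form. The half-site AGGTCA was in 30.5% (30.2 to 30.8) of RORγ only windows against 14.2% at 1 kb, in 21.4% of SREBP2 only windows against 15.02%, and in 8.44% of shared windows against 13.6%. Gene starts held it in 8.46%. The full RORE core, some of whose matches contain that half-site, was rarer at RORγ only summits (0.246%, 0.214 to 0.281) than 1 kb away (0.569%), and was in 0.101% of shared windows. Gene starts held the core in 0.305%. Summit windows were richer in GC than those 1 kb away, with medians of 52.2% against 43.8% at RORγ only and 70.6% against 53.5% at shared regions. The part of base composition in the element shares of this and the preceding paragraph was not tested.

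**Figure D4:**
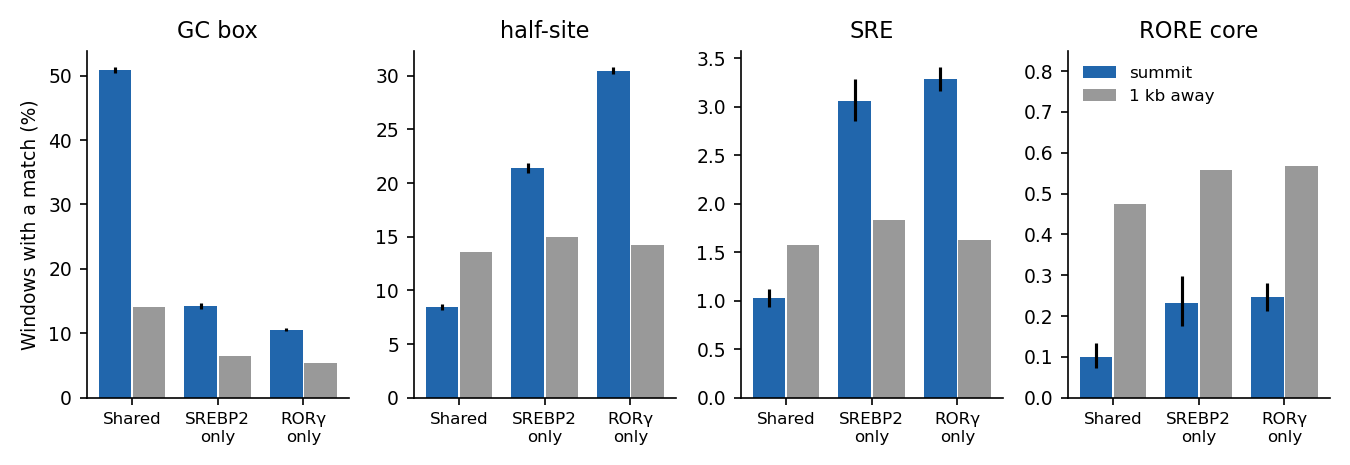
Percent of 201 bp windows with a match to 4 elements, at the summit and 1 kb away, by class, with 95% exact binomial intervals on the summit bars and a separate vertical axis for each element. GC boxes lead at shared summits, half-sites at RORγ only summits, and RORE cores are below the 1 kb level in all 3 classes.

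Many half-sites at RORγ only summits sat in recurring strings, shown here because they carry a large part of the count.
Half-site string, rank 1: acctgAGGTCAggagt
Half-site string, rank 2: acttgAGGTCAggagt
Half-site string, rank 3: tcacgAGGTCAggaga
SRE string, rank 1: cgagaTCACGCCACtgcac
The 3 half-site strings made up 16.8%, 10.4% and 6.13% of the 27192 half-site matches in RORγ only windows. The surrounding letters, here and for the SRE, were picked as the commonest at RORγ only summits, which favours their share there. The letters gAGGTCAgg surrounded 59.0% of those 27192 matches, against 26.7% of the matches 1 kb downstream and 20.4% of those at shared summits. Windows with a half-site outside these letters were 12.4% of RORγ only windows and 10.2% at 1 kb. SREs behaved alike, with 59.1% of the 2868 matches at RORγ only summits inside aTCACNCCACtgca against 45.7% at 1 kb downstream. At SREBP2 only summits 54.3% of SRE matches were in that string, and 1.39% of windows held an SRE outside it against 1.03% at 1 kb. Strings of this kind occur in Alu elements, the most numerous short repeats of the human genome. No repeat annotation was used, and the part of repeats in the calls was not tested.

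Promoters were then read gene by gene, as regions that reach into the same window at any annotated start of 20090 protein-coding genes. Of these genes 11562 (57.6%) had both factors, 1029 (5.12%) SREBP2 only, 791 (3.94%) RORγ only and 6708 (33.4%) neither. SREBP2 regions were at 62.7% of genes, RORγ regions at 61.5% and H3K27ac regions at 68.0%. With vehicle 60.3% of genes had both factors. In 98.7% of the genes with both, the regions overlapped each other, with a median summit distance of 55 bp. H3K27ac marked 86.2% (85.6 to 86.9) of genes with both, 84.2% (81.8 to 86.3) with SREBP2 only, 46.3% (42.8 to 49.8) with RORγ only and 36.7% (35.6 to 37.9) with neither.

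Genes were also split into 5 equal groups by the median GC over all their annotated starts. The factors and the mark could be at any 1 of these starts, so the groups do not give the GC of the bound start. LBR, for example, had 41.3% over its starts and 76.6% at its canonical start. In each group the share bound by both factors was higher with H3K27ac than without it. In the lowest group, 65.4% of the 1653 genes with H3K27ac and 8.79% of the 2365 without it had both factors. In the highest group the shares were 93.0% of 3605 and 86.0% of 413. Without the mark the share rose from group to group, through 17.5%, 28.6% and 51.8%. With the mark it did not follow this median GC over the lower groups, with 60.9%, 61.6% and 73.0% in groups 2 to 4.

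Named genes are given at the canonical start alone, the single start that the annotation prefers for each gene, because an alternative start can lie far inside the gene. On this count 9798 of 19812 genes (49.5%) had both factors, 6.59% SREBP2 only, 3.15% RORγ only and 40.8% neither, and 64.4% had H3K27ac. These shares are the level against which each list below is read. A gene counted as SREBP2 only here when no RORγ region reached into its window, so its SREBP2 region could still overlap a RORγ region beyond the window. That was so at 377 of the 1306 SREBP2 only genes (28.9%) and, with the factors exchanged, at 177 of the 624 RORγ only genes (28.4%). All values are fragments at the summit in 1 library, with exact Poisson intervals, so a count for SREBP2 and a count for RORγ are not on 1 scale.

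Of 21 cholesterol synthesis genes, 12 (57.1%) had both factors at the canonical start, 5 SREBP2 only, 0 RORγ only and 4 neither. With any start, 13 had both, the added gene being TM7SF2. H3K27ac was at 20 of the 21. The share with both was near the 49.5% of all genes.

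ACAT2, HMGCS1 and MVK, of the first steps of the pathway, had at most 5 RORγ fragments each. ACAT2, which condenses acetyl-CoA, had 11 and 5 fragments, and mevalonate kinase (MVK) 12 and 5. HMGCS1, the HMG-CoA synthase, had 5 SREBP2 fragments (1.62 to 11.7) and no RORγ region, with the nearest RORγ summit 25780 bp away. None of these 3 genes had more than 12 SREBP2 fragments.

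MVD, the mevalonate diphosphate decarboxylase, had the highest counts of the list for both factors, with 61 SREBP2 fragments (46.7 to 78.4) and 32 RORγ fragments (21.9 to 45.2) at summits 29 bp apart. IDI1, the isopentenyl diphosphate isomerase, stood apart with 31 SREBP2 fragments (21.1 to 44.002), a fold of 11.5, and no RORγ summit within 7383 bp. PMVK, the phosphomevalonate kinase, and FDPS, the farnesyl diphosphate synthase, had neither factor, although both had H3K27ac. The nearest summits to the FDPS start were 12063 bp (SREBP2) and 3974 bp (RORγ) away.

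Further down, FDFT1, the squalene synthase, had 11 and 8 fragments, SQLE, the squalene epoxidase, 29 and 15, and LSS, the lanosterol synthase, 23 and 25. LBR, a sterol reductase of the nuclear envelope, had 43 and 30. EBP had 21 and 14, and DHCR7, another sterol reductase, 20 and 20. NSDHL had 10 SREBP2 and 15 RORγ fragments at summits 338 bp apart. MSMO1 (5 fragments), SC5D (16) and TM7SF2 (12) had SREBP2 only in the window. At SC5D the SREBP2 region nevertheless overlapped a RORγ region beyond the window and so is of the shared class, the nearest RORγ summit being 378 bp from the start. This was 1 of the 5 SREBP2 only genes of the list. For MSMO1 the nearest RORγ summit was 51581 bp away.

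CYP51A1, the lanosterol demethylase, was classed as neither but had 35 SREBP2 and 23 RORγ fragments with vehicle. With XY018 its nearest summits lay 422 bp (SREBP2) and 426 bp (RORγ) from the start, in regions that did not reach the window. HSD17B7 had neither factor and no H3K27ac. At the canonical start the 5 SREBP2 only genes had no RORγ region with vehicle either.

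Vehicle counts of the same promoters are given side by side, without a test, because the total depth of the libraries is unknown. MVD had 69 SREBP2 and 46 RORγ fragments with vehicle, LBR 50 and 38, and SQLE 54 and 17. IDI1 had 55 SREBP2 fragments with vehicle and SC5D 31. Of the 21 genes 12 had both factors with vehicle, as many as with XY018.

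**Figure D5:**
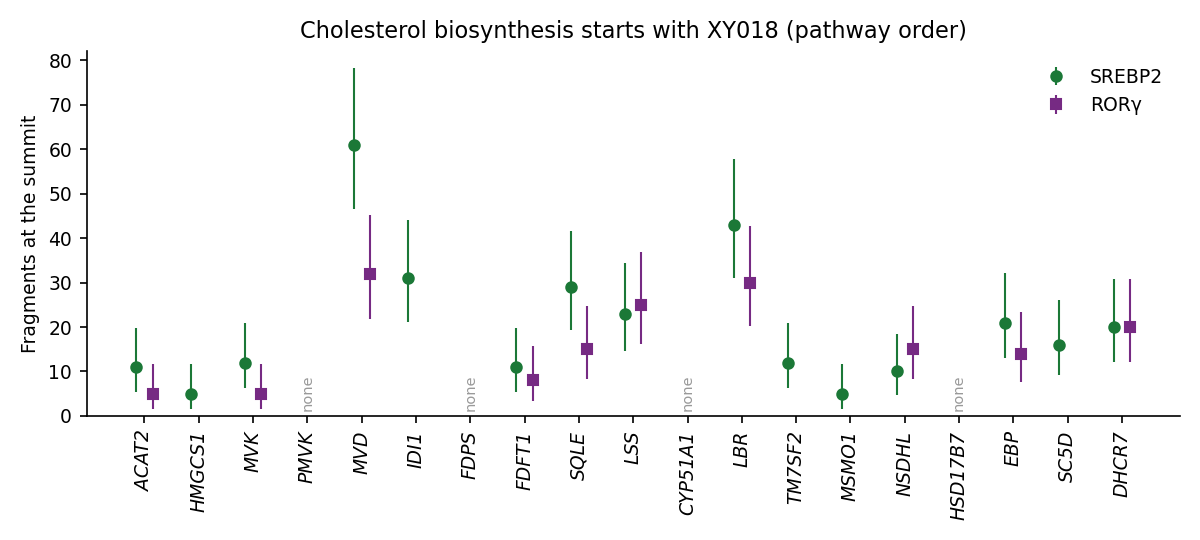
Fragments at the summit of the SREBP2 and RORγ regions at the canonical starts of 19 of the 21 cholesterol synthesis genes with XY018, in pathway order (horizontal axis), with 95% exact Poisson intervals. "None" marks the 4 genes without a region of either factor. MVD and LBR lead for SREBP2, and 5 genes have an SREBP2 point alone.

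Of 16 matched genes (of 17 listed) for sterol sensing, uptake and trafficking, 12 (75%) had both factors at the canonical start, 2 SREBP2 only, 0 RORγ only and 2 neither. SREBF2, which encodes SREBP2, had 28 SREBP2 fragments (18.6 to 40.5) and 41 RORγ fragments (29.4 to 55.6), and 49 and 33 with vehicle. SREBF1, the gene of its paralogue, had 20 and 13. MBTPS1, the protease that releases SREBP, had 49 and 22, and INSIG1, which holds SREBP in the endoplasmic reticulum, 37 and 31 at summits 629 bp apart. SCAP, the sterol sensor that escorts SREBP, had 19 and 27. NPC1, which exports cholesterol from lysosomes, had 13 and 20 at summits 2 bp apart. STARD4, a sterol carrier, had 7 SREBP2 fragments and its nearest RORγ summit 43547 bp away.

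Of these 37 sterol genes, 5 had an SRE in the canonical promoter, and in 2 of them it lay inside the SREBP2 region. No share over all canonical promoters is given, so whether sterol genes held the SRE more often than others was not tested. At SREBF2, one of these, it was 361 bp from the summit. HMGCS1 and NPC1L1 held an SRE 381 and 630 bp from the summit, outside the region. Thus the printed SREs lay at the side of the SREBP2 summits or beyond the region.

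Of 21 matched ROR and clock genes (of 22 listed), 16 (76.2%) had both factors at the canonical start, 2 SREBP2 only (CRY1 and DBP), 0 RORγ only and 3 neither. BMAL1, the activator of the clock, had 19 SREBP2 fragments (11.4 to 29.7) and 14 RORγ fragments (7.65 to 23.5), and the RORE core shown above lay 115 bp from its RORγ summit. NR1D2, a repressor that binds the same element, had 17 and 22 fragments and a RORE core 461 bp from the summit. CLOCK had 7 and 12 fragments and a RORE core inside its RORγ region, 687 bp from the summit. In all, 5 of the 40 sterol and clock genes with a RORγ region held a RORE core within 1000 bp of the summit, 3 of them inside the region. No share over all genes is given for this range, so whether these genes held the core more often than others was not tested.

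Among the other clock genes PER3 had 31 and 28 fragments, and RORB, another gene of the ROR family, had 35 and 33 without an H3K27ac region. NR1D1, the paralogue of NR1D2, and CIART had neither. An E-box lay within 100 bp of the RORγ summit at 2 of 38 searched sterol and clock genes, against 5.51% of all shared RORγ regions. These were BHLHE40 (19 bp) and BHLHE41 (44 bp), both of which encode clock repressors. The BHLHE41 site was nearer to the SREBP2 summit (6 bp), and BHLHE41 was the only 1 of 47 searched genes with an E-box within 100 bp of that summit.

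Other lists served as comparison. Fatty acid synthesis genes had both factors at 9 of 14, with FASN, the fatty acid synthase, at 27 and 40 fragments, and liver X receptor and efflux genes at 4 of 9, with ABCG1 at 28 and 21. Nuclear receptor coregulators had both at 12 of 14, such as EP300 (43 and 28) and CREBBP (36 and 30). Genes of SP, KLF, NF-Y and USF factors had both at 4 of 11 canonical starts and SREBP2 only in the window at another 4 (KLF5, NFYB, NFYC and SP2). With any start 8 of the 11 had both, and the SREBP2 regions at KLF5 and NFYC overlapped RORγ regions beyond the canonical window, with summits 363 and 24 bp apart. Th17 genes had both at 1 of 8 (IL1R1), and IL17A, IL17F, IL22 and IL23R had neither.

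In 2 large gene families the mark and the factors were counted in the same way. H3K27ac was at 78 of 84 ribosomal protein starts, but both factors were at 22 (26.2%), SREBP2 only at 9 and RORγ only at 1. Of 405 olfactory receptor starts 1 had both, 2 SREBP2 only and 7 RORγ only, and 2 had H3K27ac. Most ribosomal protein starts thus carried the mark without both factors.

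The line was checked against its label with H3K27ac at canonical starts in XY018-treated cells. The mark was at 6 of 8 basal marker genes (CDH3, EGFR, FOXC1, KRT17, KRT5 and KRT6A, not KRT14 or TP63), at 4 of 8 luminal markers (ERBB2, FOXA1, GATA3 and XBP1) and at 1 of 9 markers of other cell types (CD68). With vehicle, the basal genes with the mark at the canonical start were CDH3, EGFR, FOXC1 and TP63 (fold 3.76), and the luminal ones were the same 4. KRT17, KRT5 and KRT6A had none there with vehicle, although KRT17 (fold 4.15) and KRT5 (15.7) had it when any start was counted. ESR1 and PGR, hormone receptor genes, had no H3K27ac region at the canonical start with XY018. ESR1 (9 and 9 fragments) nevertheless had both factors.

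The strongest regions of each class were ranked by fold, for shared pairs by the lower fold of the pair. Among the leading shared promoters were those of ZFP41, CACNA1B, PAX5 and PKD1. CACNA1B (chr9:140771268-140773581), a neuronal calcium channel gene, had 101 SREBP2 and 136 RORγ fragments at summits 53 bp apart and no H3K27ac region. PAX5 (chr9:37002437-37003158), a B-cell transcription factor gene, had 83 and 83 at summits 23 bp apart. Outside promoters, the chromosome 21 region whose sequence is shown had 71 and 91 fragments and lay 26197 bp from the nearest assembly gap or chromosome end. The region on chromosome 18 (chr18:11561-12684), with 119 and 143 fragments, lay 2038 bp from such an edge.

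The leading SREBP2 only promoters were those of PPP2R1A, IDI1 with its neighbour WDR37, ZNF48, RPN1 and POLM. PPP2R1A (chr19:52693403-52693814), a scaffold subunit of a protein phosphatase, had 32 fragments and a fold of 14.9, with no RORγ region in vehicle either. All 5 were in an H3K27ac region and in the vehicle SREBP2 list, and all but PPP2R1A overlapped a vehicle RORγ region, which at IDI1 did not reach the window of the canonical start. The leading RORγ only promoters were those of EXOSC2 (23 fragments), ZSWIM7 (18), MAEA (16), LHFPL1 (16) and PIP5K1C (15). All 5 overlapped both a vehicle SREBP2 and a vehicle RORγ region, and 3 overlapped H3K27ac.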

How the data were processed

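ChIP-seq was done in HCC70 cells for SREBP2, RORγ and H3K27ac with vehicle or XY018, 1 library each, with 6 input libraries that were not analysed here. Per the labels, peaks were called with MACS2 2.1.0 on hg19, and Bowtie2 and bedtools are also named, whereas the study's methods name another aligner, uniquely mapped tags without duplicates, and a lower dose of XY018. The deposited lists give for each region the fold over local background (a ratio), −log10 p and −log10 q, a score and the summit. No source used here gives the control behind each call.

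From these, overlaps, summit distances and positions (GRCh37, GENCODE 44) were computed in Python 3.11.15 with SciPy 1.17.1. Position was called by the summit, in the order promoter, transcript end (−100 to +1000 bp), coding exon, UTR, non-coding exon, intron. Fragments at the summit were recovered by solving the fold and −log10 p of each region for a whole Poisson count, within 5% of a step in 100% of regions of both lists. The background in tags per kb is the most common recovered background, taken as the lowest, divided by the smallest region width. Scripts were tested on simulated data. Shares have exact Clopper-Pearson intervals and differences Newcombe intervals.

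The named genes are those of the sterol and clock lists, 2 to 4 examples of the other lists, and the 5 promoter and 3 other regions of highest fold in each class. Members and lists were chosen with earlier results of these data known. The canonical start was added after the data were seen. Promoter sequences of another build were not used. Regions on chromosome Y were left out. Alternatives were stricter q limits, lists of equal length, other overlap rules, promoter windows and motif windows. Some list genes and regions are not reported here, though counts over the lists include them.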

Additional observations from a re-analysis of the deposited data

Results flagged for a closer look

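The shared share of the SREBP2 list was 15.1 points higher with XY018 (64.0%) than with vehicle (49.0%), whereas that of the RORγ list moved by -0.705 points (33.9% against 34.6%). The directions were opposite, each from 1 library per treatment, and the difference was not tested. At q of at most 1e-05 the changes were 26.4 and -5.71 points, again opposite, whereas at q of at most 0.01 both shares rose, by 23.2 and 3.81 points. The vehicle lists were longer, with 117441 SREBP2 and 167264 RORγ regions, and the part of list length in these changes was not tested.

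Regions on chromosome Y, which the comparison leaves out, numbered 36 in the SREBP2 list and 93 in the RORγ list with XY018, above the 3 counts taken as the floor.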

How the results depend on the processing

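Of 62 alternative values, 60 were planned and 2, at canonical starts, were added after the data were seen. 40 moved out of the main counting interval, 21 did not or, for counts of genes, stayed within 1.5 times the main count, and 1 reversed. Under each q limit, with lists of equal length and under each overlap rule, the classes were drawn anew. At q of at most 1e-05 the promoter share of shared minus SREBP2 only regions turned to -5.66 points, the H3K27ac difference was 3.67 points, the shared shares were 87.2% (SREBP2) and 81.0% (RORγ), the median summit distance was 43 bp, the differences from RORγ only were 22.2 points for promoters and 45.3 for H3K27ac, and summit minus 1 kb was -0.863 points for the SRE at shared and -0.200 for the RORE core at RORγ only summits. At q of at most 0.01 these shares were 74.2% and 51.3%, the distance 47 bp, the differences from SREBP2 only 17.3 and 31.6 points and from RORγ only 28.9 and 48.7 points, and the SRE value -0.736. With lists of equal length they were 58.0% and 56.2%, the distance 50 bp, the H3K27ac difference from SREBP2 only 36.4 points, and the differences from RORγ only 28.2 and 46.7 points. When a pair had to cover 50% of its shorter member they were 61.3% and 32.3%, 49 bp, 36.0 points for H3K27ac from SREBP2 only, and 27.7 and 45.6 points from RORγ only. With summits within 100 bp they were 44.5% and 23.9%, 13.3 and 24.98 points from SREBP2 only, and 22.96 and 39.8 points from RORγ only, and no summit distance was computed, since the rule fixes it. A promoter window of 5 kb gave promoter differences of 28.2 and 36.4 points and protein-coding starts alone 13.6 and 17.7 points. Motif windows reaching 50 bp gave -0.345 points for the SRE and -0.164 for the RORE core. The cause of these changes was not tested. No paired analysis was possible because each group was 1 library. The total depth of the libraries is unknown. Median fragments were 7 at SREBP2 only and 6 at RORγ only regions, and the part of the calling limit in their number was not tested.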

Other observations

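The share of regions bound by both factors differed between chromosomes. Of SREBP2 regions, 55.9% on chromosome 3 and 71.5% on chromosome 17 were shared, the lowest and the highest of the 23 chromosomes compared, and of RORγ regions 25.3% on chromosome 13 and 48.2% on chromosome 17. Chromosome 19 carried the most regions per Mb of known sequence, with 98.2 for SREBP2 and 173 for RORγ. The X chromosome carried the fewest SREBP2 regions, 11.8 per Mb, with 64.4% shared.

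Other elements also differed by class. The ETS motif CCGGAAG was in 3.44% of shared summit windows against 1.59% at 1 kb, and in 0.895% of RORγ only windows against 0.745%. The CTCF motif CCANNAGNNGGC was in 2.42% of shared windows against 1.21%, and in 0.610% of RORγ only windows against 0.704%. The AP-1 motif TGANTCA was less frequent at summits than 1 kb away in each class, with 1.59% against 4.35% at shared and 4.08% against 5.77% at RORγ only summits. CCAAT, the box of NF-Y, was in 8.17% of shared windows against 19.5% at 1 kb. The part of base composition in these differences was not tested.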
